A study of Mus musculus with 32 samples.

Results

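Non-neuronal nuclei of the mouse colon muscle layer were compared between animals housed at the University of Bern and at the Francis Crick Institute. The members are the 8 libraries labelled as colon EGFP-negative nuclei, 4 from each facility, out of 32 libraries in the study, and every gene of the deposited table was considered. Both groups were C57BL/6 mice kept specific pathogen-free, and both had received AAV9-CaMKII-EGFPKASH, a virus that places EGFP on the nuclear membrane under a CaMKII promoter, into the blood 5 weeks before sampling. The longitudinal muscle with the attached myenteric plexus was peeled off, nuclei were released, and DAPI-gated single nuclei without EGFP were sorted and their RNA sequenced. The negative gate is defined only by the lack of EGFP, so it can hold neuronal nuclei that the virus did not mark. The study asked how facility, and with it the microbiota, relates to enteric gene expression. The ages and the number of animals were not given in the sources used here, and nothing in them says that the 4 libraries of a group came from separate animals, so p-values measure the spread between these libraries.

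The muscle layer of the colon is made mostly of smooth muscle, whose contraction is paced by interstitial cells of Cajal and modulated by PDGFRA-positive fibroblast-like cells. Enteric glia, resident macrophages, blood and lymphatic vessels, mesothelium and passing lymphocytes share the layer, and their nuclei all fall in a negative gate. Nuclear RNA is rich in unspliced and noncoding transcripts, so levels need not follow those of cytoplasmic mRNA. In a bulk library, fewer cells of a type and less RNA per cell cannot be told apart.

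The labelled population was checked with 16 lists of cell type markers, each summed in CPM, the counts of a gene relative to the scaled size of its library. The 12 smooth muscle genes summed to 11060, 8709, 18116 and 9589 CPM in Bern libraries 1 to 4 and to 7469, 10377, 6176 and 8052 CPM in Crick libraries 1 to 4. Smooth muscle held the largest sum of the 16 lists in 5 of the 8 libraries. In Bern 2, Crick 3 and Crick 4 the 14 epithelial genes summed higher, to 11887, 6509 and 8953 CPM, although epithelium should be left behind when the muscle is peeled. The lowest epithelial sums were 1611 CPM in Bern and 2540 CPM in Crick. The 20 pan-neuronal genes summed to 2480, 1968, 1260 and 1122 CPM in Bern and to 565, 610, 307 and 425 CPM in Crick. These neuronal sums did not overlap between facilities, and all were below the sums in EGFP-positive colon nuclei, which on the scaling of the colon libraries were 6286 to 7987 CPM in Bern and 4867 to 5433 CPM in Crick against 1269 to 2894 and 348 to 701 CPM in the negative sort. The mast cell list summed to at most 5.12 CPM in any library. The pancreatic acinar list summed to 1.21 to 56.2 CPM in Bern, all of it from 1 gene, since the other 5 of its 6 genes had no count there.

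**Figure D1:**
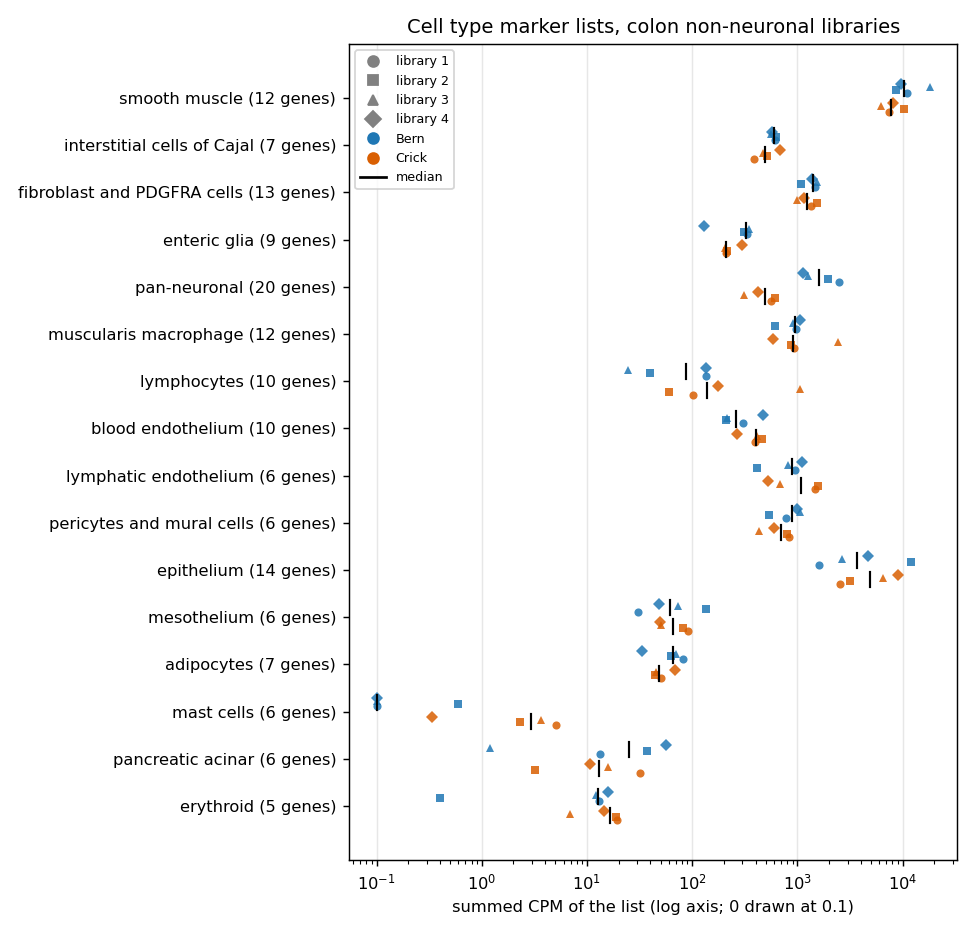
Summed CPM (log axis) of 16 cell type marker lists in each of the 8 colon non-neuronal libraries, with Bern in blue, Crick in orange, 1 marker shape per library number and a black bar at the group median. Only the pan-neuronal sums separate completely (1122 to 2480 CPM in Bern, 307 to 610 CPM in Crick), and Crick library 3 stands apart for lymphocyte markers at 1065 CPM.

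Several properties of the libraries moved with facility. Totals were 2562144 to 4618379 counts in Bern and 4310293 to 8350833 in Crick. At an equal depth of 2394481 counts, 18959 to 20131 genes had a count in the Bern libraries and 24052 to 31608 in the Crick libraries. Ribosomal RNA took 1.05% to 2.46% of counts in Bern and 8.10% to 13.3% in Crick. By Xist and 4 Y-linked genes, 2 Bern libraries were from males and 2 from females, against 3 and 1 in Crick. The sex read this way was the same in all 4 sorted samples of a facility that carry the same number, for 8 of 8 such sets. Totals and sexes overlapped between the facilities: with sex as a covariate 88 genes passed in the comparison below, and at equal depth 134. The ribosomal RNA share and the number of genes with a count did not overlap, so their part in the results below cannot be told apart from that of the facility.

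Of 19164 genes tested with edgeR's quasi-likelihood test on the 16 non-neuronal libraries, 206 (1.07%) differed between Bern and Crick in colon at a Benjamini-Hochberg adjusted p under 0.05. Of these 113 (0.59%) were higher and 93 (0.485%) lower in Bern, while the median log2 fold change of all genes was 0.0042. The genes higher in Bern were mostly well expressed: 92 of them had at least 100 CPM in the higher group, and their fold changes were modest, with a median of 1.87 on the log2 scale. The genes lower in Bern were spread over all levels. In the higher group 32 had under 5 CPM, 25 had 5 to 20 CPM, 15 had 20 to 100 CPM and 21 had at least 100 CPM. Of all genes tested 3728 lay under 5 CPM and 1798 at 100 CPM or more. No count in any Bern colon library was found for 54 of the lower genes, beside 258 of all genes tested. Such genes could only be called lower, so nothing is read from this count. The 4 Bern and 4 Crick libraries did not overlap in 198 of the 206 genes, beside 2381 of all genes tested (12.4%).

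The number of genes past the threshold was small against its dependence on single libraries. Leaving out 1 of the 8 libraries left 12 to 61 genes, with 12 genes without Crick 3 and 16 without Crick 1. Of the 206 genes, 12 passed in all 8 such fits and 108 in none. Without Bern 1 and 2, which held the highest pan-neuronal sums, and Crick 3, no gene passed, with 2 libraries against 3. Under upper-quartile scaling, which moved the median of all genes to -0.22, 33 genes were higher and 82 lower, so the share of higher calls depends on the scaling.

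**Figure D2:**
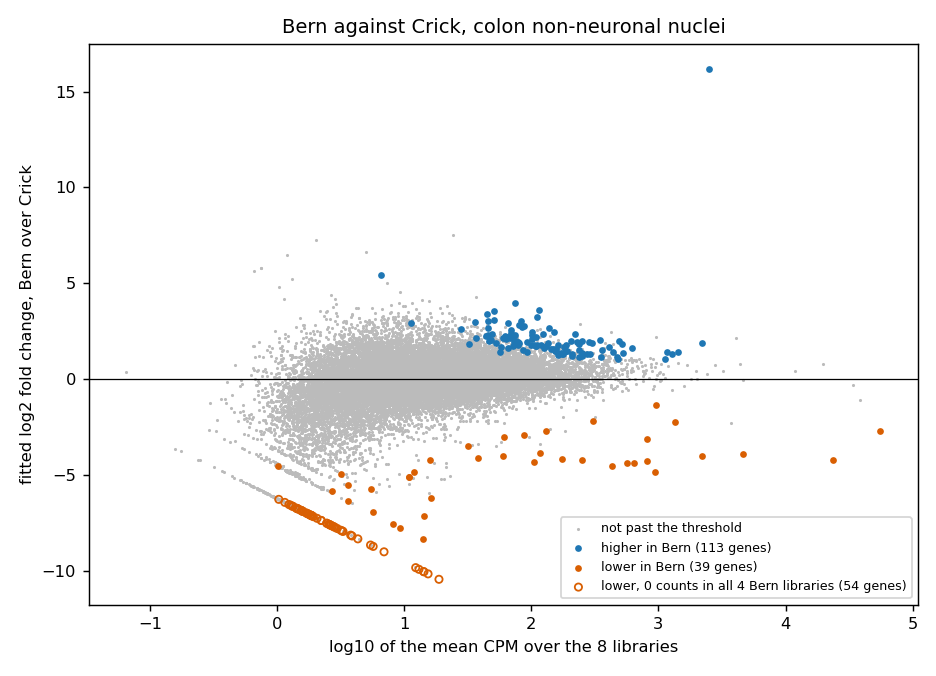
Fitted log2 fold change of Bern over Crick against the log10 mean CPM of the 8 libraries for each gene tested. The 113 genes higher in Bern lie mainly at high CPM, and the 54 genes drawn as open circles had no count in Bern, so that their fitted fold change depends on the small count the model adds and has no meaning as a size.

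The steadiest genes with an official symbol were those that passed in at least 6 of the 8 fits that leave out a library. There were 12, named here after their values were seen, and 10 of them were higher in Bern. Zfp612, a zinc finger protein gene (chr8:110079746-110092741, GRCm38), stood at 199, 249, 317 and 256 CPM in Bern libraries 1 to 4 and at 39.0, 51.7, 44.4 and 51.7 CPM in Crick. The lowest Bern library lay far above the highest Crick library, and the log2 fold change was 2.45 ± 0.32 (SE; adjusted p = 0.00112 in edgeR). Zfp612 was the one gene chosen by the rule for the largest changes that passed without any of the 8 libraries, with an adjusted p of at most 0.0103.

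Ncam1, the neural cell adhesion molecule (chr9:49502136-49798925), was at 433, 310, 379 and 200 CPM in Bern and at 65.8, 97.3, 72.8 and 96.9 CPM in Crick, a log2 change of 1.99 ± 0.31 (SE; edgeR adjusted p = 0.00348). Spaca6, a sperm membrane protein gene (chr17:17827158-17843009), was at 395, 482, 598 and 399 CPM against 105, 141, 109 and 160 CPM, a log2 change of 1.86 ± 0.29 (SE) with an edgeR adjusted p that was also 0.00348. For both genes the groups were wide apart, and both passed in all 8 fits that left out a library.

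Rab12, a small GTPase of endosome and lysosome traffic, stood at 119 ± 26.3 CPM in Bern and 31.2 ± 6.73 CPM in Crick (SD, n = 4 each), and Rab7, the late endosome GTPase, at 278 ± 93.9 and 85.9 ± 10.5 CPM. Pdlim7, an actin-binding PDZ and LIM protein, stood at 772 ± 143 and 197 ± 61.3 CPM. Nrbp2, a pseudokinase, stood at 801 ± 116 and 225 ± 73.9 CPM. Nedd4l, a ubiquitin ligase of ion channels, was at 277, 609, 936 and 415 CPM in Bern and between 95.7 and 174 CPM in Crick. The log2 changes of these 5 genes ran from 1.69 (Rab7) to 2.03 (Nedd4l), with edgeR adjusted p between 0.0107 and 0.0185. Rab7 is named as a relative of Rab12 and passed in 3 of the 8 fits.

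By the rule for the largest changes, 12 genes higher in Bern were named, from Zfp935 at a log2 change of 5.43 to Cdr1 at 2.34. Zfp935, a zinc finger gene, had 5.73, 10.5, 12.3 and 22.7 CPM in Bern and 0.426, 0.706, 0 and 0 CPM in Crick, the largest step of the 12. Optc, which codes for the matrix proteoglycan opticin, had 150, 131, 138 and 57.7 CPM against 25.1, 23.5, 14.5 and 16.4 CPM (log2 change 2.58 ± 0.43, edgeR adjusted p = 0.00723). Its call held in 7 of 8 fits that left out a library and was lost without Crick 3 (edgeR adjusted p = 0.0547). P4ha3, a subunit of the enzyme that hydroxylates collagen prolines, stood at 81.8 ± 27.1 against 9.89 ± 3.91 CPM (SD, n = 4). Rspo1, a secreted amplifier of Wnt signalling, varied more within Bern, with 61.1, 137, 16.2 and 41.8 CPM, and lay at 12.1, 14.3, 2.61 and 4.03 CPM in Crick. Ecscr, an endothelial regulator of migration, had 279, 154, 60.02 and 111 CPM against 12.7 to 33.0 CPM. The blood endothelial list showed no such gap: its sum was 210 to 469 CPM in Bern and 268 to 457 CPM in Crick. None of its 10 genes passed, beside 1.07% of all genes. Pdrg1, a prefoldin-like gene regulated by p53, had 92.6, 153, 22.7 and 56.0 CPM against at most 20.3 CPM, with Bern 3 close to the Crick libraries. Cdr1 had 152, 256, 251 and 159 CPM against 23.9 to 53.1 CPM. It overlaps the antisense transcript C230004F18Rik, and without a stated strand setting the reads of the pair cannot be told apart. Of the 12 genes, Zfp935, P4ha3, Camk2a, Ecscr, Sync, Sh3gl2 and Cdr1 fell short of the threshold when any 1 of the 8 libraries was left out, Rspo1 and Hspb7 passed in 2 such fits and Pdrg1 in 1.

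Of the 12, Hspb7 and Sync code for proteins of muscle. Hspb7, a small heat shock protein of muscle, was at 83.4, 153, 285 and 58.4 CPM in Bern and at most at 26.4 CPM in Crick (log2 change 2.71 ± 0.57, edgeR adjusted p = 0.0317). Sync, an intermediate filament protein of muscle, was at 142, 47.1, 64.1 and 63.4 CPM against 8.04 to 23.1 CPM. On the scaling of the colon libraries, mean Sync was higher in EGFP-positive than in negative nuclei. It was at 191 against 91.6 CPM in Bern and 45.3 against 14.2 CPM in Crick. Sync was also called higher in Bern in the positive nuclei (log2 change 2.08, edgeR adjusted p = 0.0248). Hspb7 was lower in the positive nuclei, at 17.8 against 168 CPM in Bern and 7.93 against 25.3 CPM in Crick. Further muscle genes, named after their values were seen, were Jph2, which ties the plasma membrane to the sarcoplasmic reticulum, at 122 ± 33.2 against 34.9 ± 10.7 CPM (SD, n = 4), and Ldb3 of the Z-disc, at 76.7 ± 45.0 against 18.8 ± 6.21 CPM. Nexn, an actin-binding protein, also passed, at 68.4, 221, 347 and 216 CPM against 60.1, 90.9, 44.4 and 32.6 CPM, with Bern 1 below Crick 2. No gene of the smooth muscle list itself passed, beside 1.07% of all genes. Its 12 genes had a median log2 change of 0.47, with Myh11, the smooth muscle myosin, at 5513 ± 1707 CPM in Bern and 3257 ± 638 CPM in Crick (edgeR adjusted p = 0.430). Acta2, smooth muscle actin, was at 386 to 952 CPM in Bern and 351 to 658 CPM in Crick. Of 22 smooth muscle ion channel genes 1 passed, beside 0.59% of all genes higher in Bern. This was Abcc9, the sulfonylurea receptor of the vascular and smooth muscle potassium channel, at 327 ± 85.1 against 146 ± 42.5 CPM (log2 change 1.17 ± 0.28, edgeR adjusted p = 0.0449). Its call was lost when any 1 of the 8 libraries was left out (edgeR adjusted p of 0.0535 to 0.168).

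Of the 12, Camk2a and Sh3gl2 are known from neurons. Camk2a, a calcium-dependent kinase of synapses, was at 64.6, 279, 69.2 and 50.1 CPM in Bern and at 13.9, 16.2, 13.1 and 18.4 CPM in Crick, so Bern 2 stood far above the other libraries. Sh3gl2, an endophilin of synaptic vesicle recycling, was at 189, 46.9, 62.4 and 164 CPM against 14.3 to 30.9 CPM. Chosen after their values were seen, L1cam, an axonal adhesion molecule, was at 642, 543, 287 and 312 CPM against 103 to 146 CPM, and Gnao1, a G protein subunit of neurons, at 227 ± 50.2 against 83.5 ± 25.3 CPM. Meg3, a nuclear long noncoding RNA from an imprinted locus, was at 4012, 5901, 2465 and 1554 CPM against 514, 868, 797 and 1640 CPM, with Bern 4 below Crick 4. In the EGFP-positive colon nuclei, Camk2a, L1cam, Gnao1 and Meg3 had higher mean levels than in the negative sort of the same facility, for example 483 against 133 CPM for Camk2a in Bern on the scaling of the colon libraries. Sh3gl2 did not, with 55.6 CPM in the positive and 133 CPM in the negative sort in Bern.

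The pan-neuronal marker sums moved in the same direction as these genes, with a mean of 1707 CPM in Bern and 477 CPM in Crick. Of the 20 listed genes 17 had a positive log2 change and the median was 1.76, yet none passed in edgeR, beside 1.07% of all genes. DESeq2 called 4 of them and limma-voom 7, all higher in Bern. These methods also called more genes in general, with 340 of all genes higher in Bern by DESeq2 and 227 by limma-voom. Prph, a neuronal intermediate filament, was at 124, 100, 41.7 and 37.2 CPM in Bern and at 12.4, 23.5, 9.85 and 27.4 CPM in Crick (edgeR adjusted p = 0.162), and Elavl4, a neuronal RNA-binding protein, at 141, 156, 97.9 and 106 CPM against 13.3 to 45.4 CPM (edgeR adjusted p = 0.178). Whether neuronal RNA in the negative sort has a part in the higher levels of Ncam1, L1cam, Gnao1, Camk2a and Meg3 was not tested.

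**Figure D3:**
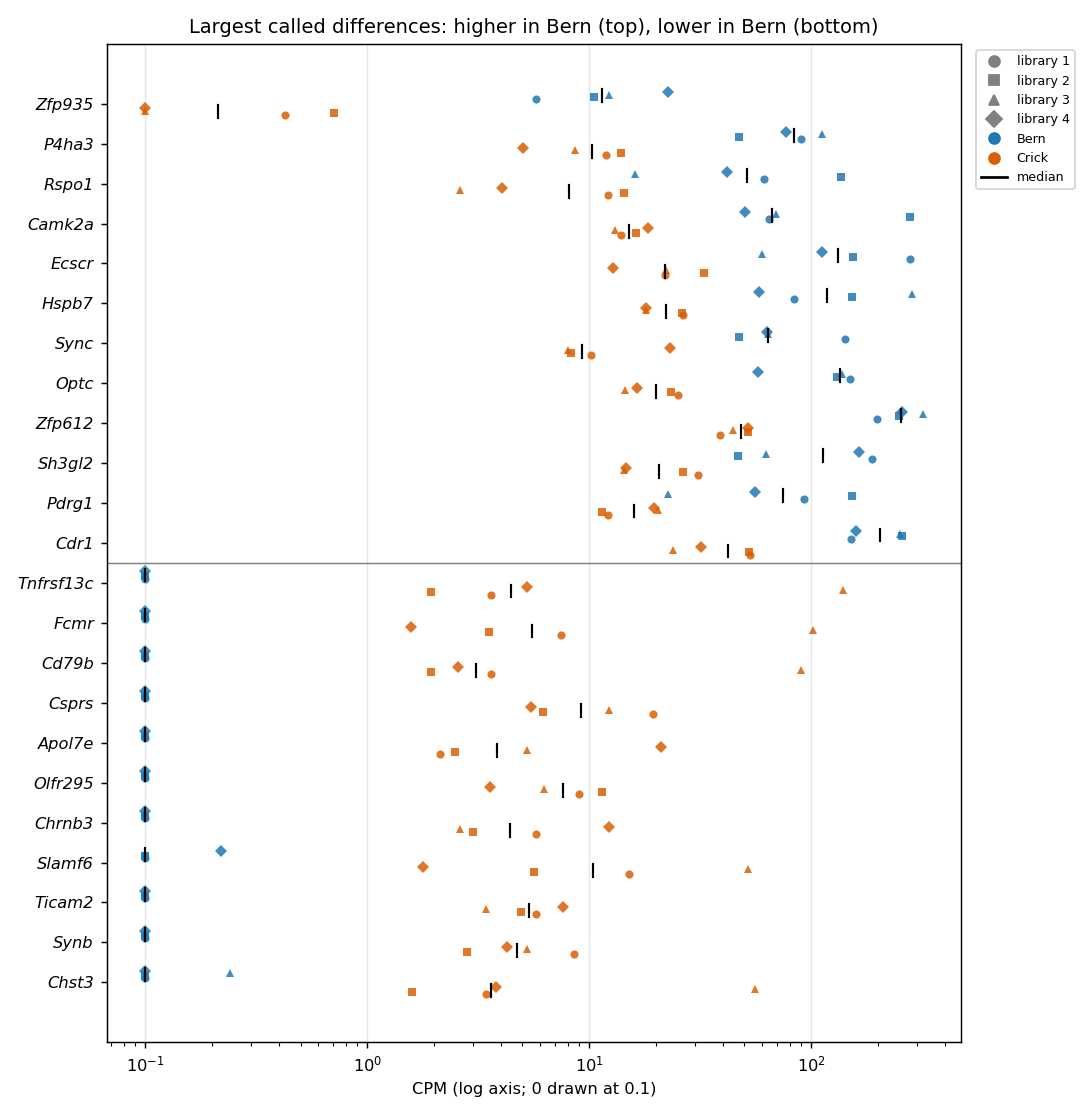
CPM (log axis, 0 drawn at 0.1) of the 12 genes with the largest called change upward in Bern and 11 of those with the largest change downward, with Bern in blue, Crick in orange, 1 marker shape per library number and a black bar at the group median. The upper genes differ by modest steps at moderate CPM, while the lower genes sit at 0 in nearly all Bern libraries and, for Tnfrsf13c, Fcmr, Cd79b and Chst3, are highest in Crick library 3.

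Of the named genes lower in Bern, 4 described here belong to lymphocytes. Tnfrsf13c, the BAFF receptor of B cells, had no count in the 4 Bern libraries and 3.62, 1.94, 139 and 5.26 CPM in Crick. Cd79b, a chain of the B cell receptor, had none in Bern and 3.62, 1.94, 90.1 and 2.57 CPM in Crick. Fcmr, the IgM Fc receptor, had 7.46, 3.53, 102 and 1.57 CPM, and Slamf6, a lymphocyte adhesion receptor, 15.1, 5.65, 51.7 and 1.79 CPM with 0.219 CPM in 1 Bern library. Crick 3 therefore held most of the RNA of these genes, and the other 3 Crick libraries lay at 1.57 to 15.1 CPM. Against the floor of 3 counts over the 4 Bern libraries (0.178 CPM), Tnfrsf13c was at least 211-fold, Fcmr at least 161-fold and Cd79b at least 138-fold lower in Bern. With Crick 3 left out of the Crick mean these bounds were 20.3-fold, 23.6-fold and 15.3-fold. Without Crick 3, none of the 4 passed. Tnfrsf13c and Fcmr passed in the fits without Crick 2 or Crick 4, and Cd79b and Slamf6 in the fit without Crick 4.

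Of the 10 genes of the lymphocyte list 2 passed as lower, among them Cd79b, beside 0.485% of all genes. The list's median log2 change was -3.63 and all 10 signs were negative. Its sum was 135, 39.3, 24.6 and 135 CPM in Bern and 101, 60.01, 1065 and 176 CPM in Crick, so outside Crick 3 the sums overlapped. Cd79a, the other chain of the B cell receptor, had 4.46 CPM in Bern 1, 0 in the other Bern libraries, and 13.6, 1.59, 140 and 5.14 CPM in Crick (edgeR adjusted p = 0.130). Ptprc (CD45), a phosphatase of all white blood cells and a member of the macrophage list, was at 16.9, 32.8, 35.9 and 52.3 CPM in Bern and at 107, 78.2, 628 and 86.7 CPM in Crick (log2 change -2.70 ± 0.60, edgeR adjusted p = 0.0346), without overlap. Among the 8 fits that left out a library it passed in those without Crick 2 or Crick 4, and without Crick 3 its log2 change was -1.39 (edgeR adjusted p = 0.275). The other 11 macrophage genes did not pass, including Cd163, a scavenger receptor, at 1.93 to 12.1 CPM in Bern and 7.67 to 13.6 CPM in Crick, and Mrc1, the mannose receptor, at 24.1 to 60.1 and 27.3 to 71.0 CPM. Further lymphoid genes lower in Bern, named after their values were seen, were Pou2af1, a B cell coactivator, at 0, 0, 0 and 0.656 CPM against 4.90, 3.71, 101 and 3.24 CPM, and Cd3d, a chain of the T cell receptor complex, at 0 in Bern and 2.35 to 2.77 CPM in all 4 Crick libraries. Cd3d differed from the B cell genes in that Crick 3, at 2.61 CPM, did not stand apart. The antigen presentation list summed to 628 to 718 CPM in Bern and to 743, 732, 3604 and 869 CPM in Crick. None of its 14 genes passed, beside 1.07% of all genes, and its median log2 change was -1.05.

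A further 7 named genes lower in Bern were mostly rare in Crick too, and none passed in a fit that left out a library. Csprs, which lies on the scaffold GL456221.1, had 19.4, 6.18, 12.3 and 5.48 CPM in Crick and no count in Bern, at least 61.0-fold lower. Apol7e, an apolipoprotein L family gene, had 2.13 to 21.1 CPM, Chrnb3, a nicotinic receptor subunit, 2.61 to 12.3 CPM, Ticam2, an adaptor of Toll-like receptor 4, 3.42 to 7.60 CPM, and Synb, a syncytin of retroviral origin, 2.82 to 8.52 CPM, all without a count in Bern. Chst3, a chondroitin sulfotransferase, had 3.41, 1.59, 55.9 and 3.80 CPM in Crick, with Crick 3 again far above the rest, and 0.241 CPM in 1 Bern library. Genes with close relatives in the genome, such as Apol7e, Csprs and the olfactory receptors, can share reads with their copies, so their values are uncertain.

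Olfr295, an olfactory receptor, is the last of the 7, with 8.95, 11.47, 6.23 and 3.58 CPM in Crick and none in Bern. Olfactory receptors are normally silent outside the nose apart from scattered ectopic expression, and the table holds 1406 of their genes. At equal depth, 133, 122, 143 and 100 of them had a count in Bern libraries 1 to 4 and 1058, 1123, 958 and 400 in Crick libraries 1 to 4. The ranges are far apart, with Crick 4 lowest among the Crick libraries. Most were too rare to be tested: 198 passed the filter on low counts, and 7 of these were called lower in Bern, beside 0.485% of all genes. Genes that passed the filter through their Crick counts could hardly be called in the other direction, so nothing is read from this count. Over all genes, 1750 had no count in any Bern library and a count in every Crick library, and no gene showed the reverse. At equal depth these numbers were 955 and 2, so the gap was also present at a single depth.

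A family of predicted genes with shared repeats was also far lower in Bern. Gm10800 on chromosome 2 and 12 other predicted genes, 10 of them in a cluster at chr9:3000282-3038316, share at least 10% of their 24-base words. The first 240 bases of the Gm10800 transcript (gene at chr2:98666547-98667301, minus strand, GRCm38, GENCODE M21) are shown because reads from any member can fall on the others. Capitals mark bases covered by words found in at least 8 of the 12 other genes, which takes in 168 of the 240 bases.
Gm10800: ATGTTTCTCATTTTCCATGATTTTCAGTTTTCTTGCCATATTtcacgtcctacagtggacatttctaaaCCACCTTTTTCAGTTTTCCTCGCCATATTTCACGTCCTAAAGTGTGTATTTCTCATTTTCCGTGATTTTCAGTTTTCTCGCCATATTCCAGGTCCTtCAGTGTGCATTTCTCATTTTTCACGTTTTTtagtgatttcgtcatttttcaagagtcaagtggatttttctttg

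Gm10800 stood at 1384, 4294, 2699 and 1019 CPM in Bern and at 56818, 82645, 33410 and 5573 CPM in Crick (log2 change -4.25 ± 0.89, edgeR adjusted p = 0.0317), and passed in 1 of the 8 fits that left out a library. All 13 genes of the family passed as lower in Bern and supplied 13 of the 93 lower calls. Because they share sequence they amount to a single measurement. Together they took 0.258%, 0.713%, 0.433% and 0.173% of the counts in Bern and 8.996%, 12.7%, 5.45% and 0.907% in Crick. Crick 4 was again the lowest Crick library, close above Bern 2, and it was also the Crick library with counts in the fewest olfactory receptor genes. Any link between the 2 measures was not tested.

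**Figure D4:**
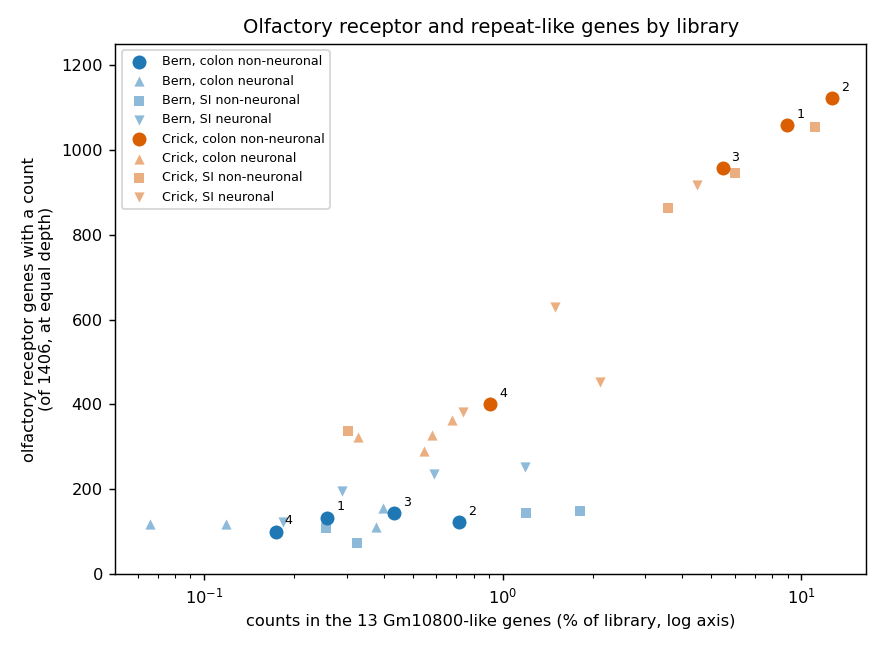
Number of the 1406 olfactory receptor genes with a count at equal depth against the percent of counts in the 13 Gm10800-like genes (log axis) for all 32 libraries, with Bern in blue, Crick in orange and the 8 colon non-neuronal libraries as large numbered circles. Crick colon libraries 1 to 3 lie at the upper right (958 to 1123 genes, 5.45% to 12.7%), Crick 4 lies at 400 genes, and the 4 Bern colon non-neuronal libraries lie at 100 to 143 genes.

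Some noncoding RNAs also passed as lower in Bern, and those named here were chosen after their values were seen. CT010467.1, annotated as ribosomal RNA (chr17:39846353-39848827), was at 9997, 9654, 17676 and 21363 CPM in Bern and at 74356, 78352, 119795 and 116171 CPM in Crick (log2 change -2.73 ± 0.38, edgeR adjusted p = 0.00155), and passed in all 8 fits that left out a library. AY036118, chosen after its values were seen, lies inside the same locus and went the other way, at 3624 to 6996 CPM in Bern and at 0.213, 0, 0 and 0 CPM in Crick. Each of its 900 24-base words also occurs in CT010467.1 and in Gm42418, so the counts of these overlapping genes cannot be told apart. Lars2, a protein-coding gene for the mitochondrial leucyl-tRNA synthetase, was at 257, 526, 590 and 505 CPM in Bern and at 1767, 1746, 2462 and 3015 CPM in Crick. Whether Lars2 shares reads with ribosomal RNA was not tested, and it stayed in the fit without ribosomal RNA given below. Rmrp, the RNA of RNase MRP, was at 13.2 ± 7.87 against 109 ± 39.0 CPM, and Rn7sk, the 7SK RNA that restrains transcription elongation, at 109 ± 44.2 against 506 ± 104 CPM (SD, n = 4). None of 11 small nucleolar and 4 small nuclear RNA genes tested passed, beside 1.07% of all genes. With ribosomal RNA and the repeat family left out of the fit, 208 genes passed, 188 of them among the 206.

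Beyond cell types, 24 lists of pathways and states were read, and 6 of these held a called gene. Each held 1 call, beside 0.59% of all genes higher in Bern, and nothing about a list is read from a single call. Of 17 circadian clock genes tested 1 passed, Per1, a repressor of the clock loop that also responds to glucocorticoids. It was at 78.3, 126, 141 and 100 CPM in Bern and at 15.3, 24.9, 30.2 and 29.1 CPM in Crick (log2 change 2.16 ± 0.38, edgeR adjusted p = 0.0107), and was lost without Crick 1 or Crick 3 (edgeR adjusted p of at most 0.0666). The clock list as a whole had a median of -0.12, with 7 genes up and 10 down in sign and sums of 676 to 991 CPM in Bern and 636 to 926 CPM in Crick. Of 18 immediate early genes 1 passed, Dusp1, a phosphatase that ends MAP kinase signalling, at 378, 233, 533 and 327 CPM against 143, 99.4, 117 and 55.1 CPM (log2 change 1.83 ± 0.41, edgeR adjusted p = 0.0362). Leaving out any 1 of the 8 libraries ended its call (edgeR adjusted p of at most 0.132). The median of the immediate early list was 0.91 and turned to -0.04 under limma-voom. Of 9 glucocorticoid response genes tested, Per1 alone passed and 8 had a positive sign. The list's sums, 202, 500, 486 and 379 CPM in Bern and 157 to 188 CPM in Crick, did not overlap. Among the 40 lists read, the sums of the pan-neuronal, antigen presentation and Wnt lists did not overlap either. Of all single genes tested 12.4% did not overlap, so nothing about the glucocorticoid or Wnt list is read from these gaps.

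The promoters of Per1 and Dusp1 are shown because these were the only clock, glucocorticoid or immediate early genes past the threshold. The windows of 300 bases, from 250 before to 50 after the start, are from RefSeq (GRCm38.p6), and capitals mark the E-box CACGTG and, in Dusp1, the cyclic AMP response element TGACGTCA.
Per1: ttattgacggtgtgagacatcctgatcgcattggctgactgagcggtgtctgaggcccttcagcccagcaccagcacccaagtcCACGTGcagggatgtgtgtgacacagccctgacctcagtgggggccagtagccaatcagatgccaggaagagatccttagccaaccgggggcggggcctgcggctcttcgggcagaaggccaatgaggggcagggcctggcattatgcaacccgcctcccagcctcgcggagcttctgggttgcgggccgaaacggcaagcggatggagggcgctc
Dusp1: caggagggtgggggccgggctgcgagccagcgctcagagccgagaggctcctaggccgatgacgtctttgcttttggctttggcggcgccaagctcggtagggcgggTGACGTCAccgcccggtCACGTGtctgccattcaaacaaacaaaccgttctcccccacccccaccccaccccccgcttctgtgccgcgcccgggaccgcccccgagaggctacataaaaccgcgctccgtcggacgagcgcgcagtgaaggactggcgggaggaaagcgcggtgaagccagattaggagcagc

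The Per1 window lies at chr11:69098699-69098998 on the plus strand and its CACGTG at -166 to -161 from the start. The Dusp1 window lies at chr17:26508423-26508722 on the minus strand, with TGACGTCA at -143 to -136 and CACGTG at -126 to -121. Both motifs read the same on both strands. Over 32851 mouse promoter windows of this length, 7.15% held CACGTG, 1.79% TGACGTCA, 0.938% TTATGTAA and 7.86% GAANNTTC. TTATGTAA and GAANNTTC, searched on both strands, were not among the letters of these windows. A further Per1 window, at chr11:69099902-69100201 and not shown, held neither CACGTG nor TGACGTCA. It held GCGTG, which 32.4% of all windows held. A match describes the sequence and says nothing about binding here.

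The remaining lists held few calls. In the Wnt list the gene past the threshold was Rspo1, 1 of 17 tested beside 0.59% of all genes, and the sums of 515 to 608 CPM in Bern and 330 to 461 CPM in Crick did not overlap. Among interstitial cell of Cajal genes, Hcn4, a pacemaker channel, had 0, 0, 0 and 0.219 CPM in Bern and 1.21 to 2.98 CPM in Crick (edgeR adjusted p = 0.0227), a difference at the level of a few counts. Kit, the receptor that defines these cells, was at 73.8 to 149 CPM in Bern and 98.5 to 179 CPM in Crick, and Ano1, their chloride channel, at 80.3 to 142 and 97.4 to 176 CPM. Pdgfra, the receptor of the fibroblast-like cells, was at 50.6, 24.4, 28.4 and 48.6 CPM in Bern and at 109, 142, 117 and 79.7 CPM in Crick, without overlap, and just missed the threshold (log2 change -1.56 ± 0.40, edgeR adjusted p = 0.0561). Col1a1, a fibrillar collagen, was at 244 ± 50.9 CPM in Bern and 158 ± 32.6 CPM in Crick (SD, n = 4). No gene passed among 8 glial genes tested, beside 1.07% of all genes. Sox10, the glial transcription factor, was at 21.7 to 58.9 against 8.10 to 24.6 CPM.

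The sums of the vascular, epithelial and mesothelial lists overlapped between the facilities, and 1 gene of these lists passed, beside 0.59% of all genes higher in Bern. That gene was Abcc9 of the 6 pericyte and mural genes, the same call as described above with the ion channels. Pecam1 and Cdh5, junction proteins of blood endothelium, lay at 16.7 to 87.0 and 15.3 to 77.6 CPM in Bern and at 24.9 to 95.3 and 12.1 to 68.0 CPM in Crick. Prox1 and Flt4, the lymphatic regulator and its growth factor receptor, lay at 9.33 to 136 and 79.1 to 192 CPM in Bern and at 93.1 to 174 and 87.5 to 226 CPM in Crick. Rgs5 and Pdgfrb of pericytes lay at 181 to 475 and 3.94 to 43.6 CPM against 217 to 561 and 18.3 to 33.2 CPM. Epcam and Cdh1 of epithelium ranged from 7.32 to 169 and from 0.637 to 204 CPM in Bern and from 28.2 to 159 and 33.5 to 218 CPM in Crick. Msln and Upk3b of mesothelium lay at 0.637 to 31.1 and 1.45 to 25.6 CPM against 1.34 to 12.9 and 4.22 to 15.1 CPM. Adipoq and Plin1 of fat cells did not exceed 0.723 CPM in Bern or 6.37 CPM in Crick, and the globin genes Hbb-bs and Hbb-bt did not exceed 2.41 or 3.18 CPM. Cpa3 and Mcpt4 of mast cells, and Cpa1 and Prss2 of acinar cells, had no count in Bern and at most 1.06 CPM in Crick.

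In lists tied to microbes no gene passed in edgeR, which is close to the 1.07% of all genes and so is no result about these lists. They held among 21 interferon-stimulated genes (sums of 299 to 521 CPM in Bern and 373 to 461 CPM in Crick), 14 Toll-like and NOD receptor genes, 7 genes of the aryl hydrocarbon receptor pathway, 9 epithelial defence genes and 5 receptors of short-chain fatty acids and bile acids that were tested. Of 20 cytosolic ribosomal protein genes none passed, beside 1.07% of all genes, with 17 negative signs and a median of -0.88. The 13 mitochondrially encoded genes, which nuclei should largely lack, summed to 6103 to 10844 CPM in Bern and 4721 to 9007 CPM in Crick. No gene passed among 8 loci that differ between C57BL/6 substrains, beside 1.07% of all genes, so nothing about substrain is read from this count.

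By position, chromosome 9 held the most calls, 27 of 1132 genes tested (2.39%), of which 10 are the repeat cluster near its start. On chromosome 4 a run of 3 neighbouring genes passed as lower in Bern, Gm17167, Gm13301 and Gm5859 (chr4:42206998-42239182). Gm13301 (chr4:42216908-42235604) overlaps Gm17167 (chr4:42206998-42235313) on the same strand. Their reads may be shared, so the run need not hold 3 separate measurements. Gm13301 was at 0, 0, 0.241 and 0 CPM in Bern and at 34.7, 42.2, 20.3 and 14.5 CPM in Crick. It passed in all 8 fits that left out a library. Gm10600, just beyond the run (chr4:42240639-42242685), was called lower too, with no count in Bern and 2.91 to 13.3 CPM in Crick. Gm17167, Gm13301 and Gm10600 were also called lower in small intestinal non-neuronal and in colon neuronal nuclei. No other run of 3 or more neighbouring genes tested passed in the same direction. Synb, Gm16867 and Gm21451, grouped here after their values were seen, lie close together without forming such a run (chr14:69289344-69503362). Gm21451 (chr14:69390854-69480287) lies within Gm16867 on the other strand. Without a stated strand setting the reads of Gm21451 and Gm16867 cannot be told apart. Synb, Gm16867 and Gm21451 were all called lower in Bern. Gm21451 had no count in Bern and 10.4, 31.8, 40.4 and 40.3 CPM in Crick. Gm16867 was at 0 to 1.45 CPM in Bern and 4.81 to 42.0 CPM in Crick. What underlies this grouping was not tested.

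The same facility contrast was fitted in small intestinal (SI) non-neuronal nuclei, where 851 genes (4.44%) passed, 353 (1.84%) higher and 498 (2.6%) lower in Bern. Of the 206 colon genes 115 also passed there, all in the same direction, which is 55.8% of the colon calls and 13.5% of the SI calls. The 2 contrasts use separate libraries, though libraries of the same number may come from the same animal. Of the 206 genes 202 had the same sign in SI (98.1%), beside 61% of all genes tested. Zfp612 had a log2 change of 2.31 in SI, Spaca6 2.08, Optc 2.93, Per1 2.41, Rab12 2.53 and Lars2 -2.15, all past the threshold. In contrast P4ha3 was at 0.014 (adjusted p = 0.993), L1cam at 0.12 (adjusted p = 0.909), Peg3, an imprinted zinc finger gene, at 0.34 (adjusted p = 0.581) and Ncam1 at 0.50 (adjusted p = 0.348) in SI, by the same edgeR fit. The difference of the 2 contrasts, tested as an interaction, passed for none of 19164 genes in edgeR, with 2015 at an unadjusted p under 0.05. DESeq2 called 325 and limma-voom 0, so nothing is called particular to colon.

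**Figure D5:**
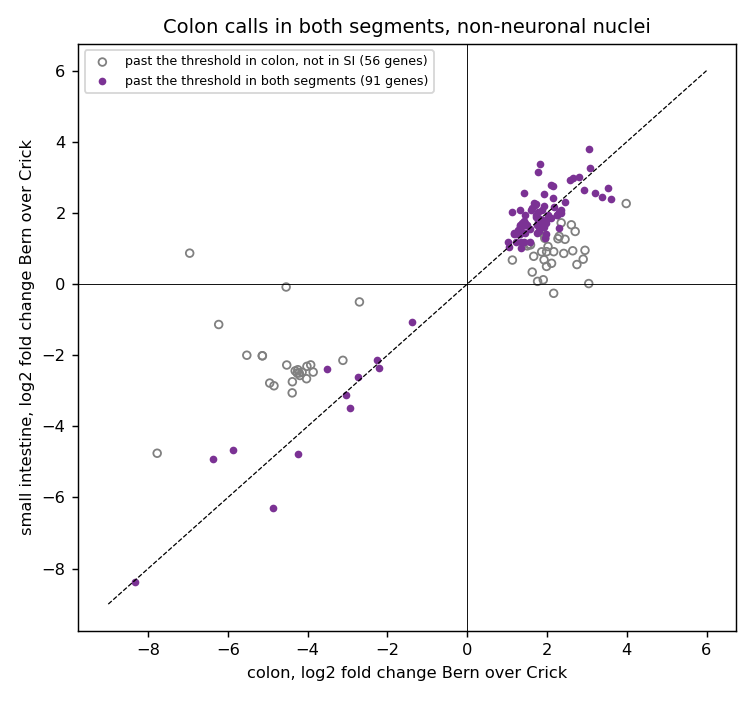
Log2 fold change of Bern over Crick in SI (vertical) against colon (horizontal) for the 147 colon genes with a count in all 4 groups, without AY036118, with filled points for the 91 that also passed in SI and a dashed line of equal change. Nearly all points lie in the quadrants of the same sign, and the open cluster near a colon value of -4.25 is the Gm10800 family, which stood near -2.4 in SI.

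In EGFP-positive colon nuclei the facility contrast passed for 170 of 19159 genes (0.887%), 99 (0.517%) higher and 71 (0.371%) lower in Bern. Of the 181 colon non-neuronal calls that were tested in that fit, 31 also passed, 30 in the same direction (17.1% of these calls, and 18.5% of the 168 neuronal calls tested in both). Pdlim7, Nrbp2, Rab12, Rab7 and Prr33 were higher in Bern in all 3 contrasts, with log2 changes of 2.31, 1.89, 1.70, 1.94 and 2.50 in the neuronal sort, and Ahnak, a giant scaffold protein, was lower at -1.04.

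The difference between the sorts passed for 4 genes (0.0209%) in edgeR, with an adjusted p of 0.0478 for each. With the replicate number as a block none of these 4 passed, and with a block within facility 1 did. Jph2 was called in both sorts, with opposite directions: in non-neuronal nuclei it was at 139, 133, 195 and 97.3 CPM in Bern and 33.8, 45.0, 25.9 and 54.9 CPM in Crick on the scaling of the colon libraries, and in neuronal nuclei at 0, 0, 0.525 and 0 against 0.493 to 3.42 CPM. Its interaction was 5.62 ± 0.96 on the log2 scale, but the neuronal levels rest on a few counts. Erc2, an active zone protein of synapses, was at 110 ± 26.3 against 37.6 ± 14.2 CPM in non-neuronal nuclei and at 257 ± 76.9 against 534 ± 68.2 CPM in neuronal nuclei (SD, n = 4), an interaction of 2.59 ± 0.44. Outside the rule for named genes, Kcnh4, a potassium channel, had no count in Bern non-neuronal nuclei and 21.9 ± 9.34 CPM in Bern neuronal nuclei, against 1.34 ± 0.49 and 1.82 ± 0.98 CPM in Crick. AY036118 was the fourth. DESeq2 called 193 genes in this test. Leaving out any 1 of the 8 colon non-neuronal libraries left none.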

How the data were processed

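RNA of sorted nuclei was amplified with NuGEN's Ovation V2 system and sequenced from a single end, per the labels' protocols. The deposited values are expected counts, which RSEM estimates by gene, for all 32 libraries. The submitters' processing notes name RSEM 1.3.0, STAR 2.5.2, DESeq2 1.10.1 and GRCm38. The Ensembl release and the strand setting are not given in the sources used here.

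Values were rounded to whole counts. Symbols and positions of 51719 of 51912 identifiers came from GENCODE M21. The test was edgeR's quasi-likelihood F test (version 4.0.16, under R 4.3.3) with filterByExpr and TMM, on group means of the 16 non-neuronal libraries, at a Benjamini-Hochberg threshold of 0.05. The sort interaction used the 16 colon libraries. SE was derived from the log2 fold change and its F value. Floors (3 counts over a group) cover counting error only.

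Named genes were the 12 largest changes in each direction among called genes whose higher group reached 5 CPM, with no overlap of libraries and an official symbol, plus called members of each list and the first 2 members of each cell type list. For the sort interaction, genes under 5 CPM were left out by the rule. The members and lists were chosen with earlier results of these data known. Code was tested on simulated data. Alternatives were DESeq2 1.42.0, limma-voom 3.58.1, other scalings and filters, blocks, thinning and left-out libraries. A fit with sex as a covariate, one without ribosomal and repeat-like genes, and a block within facility were chosen after seeing the data. Values of 2 genes that the rule names are not reported here.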

Additional observations from a re-analysis of the deposited data

Results flagged for a closer look

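A library that stood far from the other 3 of its group was looked for in the named genes, the called list genes, the cell type sums and the library properties. For normally distributed values chance alone gives about 1 such case in 20 groups, and 15 of 102 groups were flagged. A group with a count in 1 library only is always flagged, however few its counts. Crick 3 stood apart for Tnfrsf13c at 139 CPM, Fcmr at 102 CPM, Cd79b at 90.1 CPM, Chst3 at 55.9 CPM, Ptprc at 628 CPM and the lymphocyte list at 1060 CPM. Crick 4 stood apart for Apol7e at 21.1 CPM, Sync at 23.1 CPM and the glial list at 300 CPM. Bern 2 stood apart for Camk2a at 279 CPM and, at a few counts, the mast cell list at 0.596 CPM. Bern 4 was low for the glial list at 131 CPM, and its few counts set it apart for Slamf6 at 0.219 CPM and Hcn4 at 0.219 CPM. Bern 3 stood apart in the same way for Chst3 at 0.241 CPM.

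The facility difference itself differed between the sorts of the colon for 4 genes in edgeR's interaction test: AY036118 at 14.33, Jph2 at 5.62, Erc2 at 2.59 and Kcnh4 at -9.13 on the log2 scale. The fitted values of AY036118 and Kcnh4 involve groups with almost no counts and are no measure of size.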

How the results depend on the processing

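The count of 206 genes that differed between facilities became 115 under upper-quartile scaling, 418 without a filter, 113 with a filter at a mean of 1 CPM, 699 with DESeq2, 573 with limma-voom, 134 at equal depth, 490 in a fit of all 32 libraries, 88 with sex as a covariate, 0 without the 3 libraries in doubt, and 12 to 61 without single libraries. RLE scaling (199), the 8 libraries alone (275), no mitochondrially encoded genes (224) and no ribosomal or repeat-like genes (208) stayed within 1.5 times. The segment interaction, reported as 0, became 229 without a filter, 325 with DESeq2, 114 in the fit of 32 libraries, and 0 to 4 without single libraries. The sort interaction, reported as 4, became 360 without a filter, 193 with DESeq2, 1 in the fit of 32 libraries, 8 with sex as a covariate, 0 under upper-quartile scaling, with a filter at 1 CPM, without the 3 libraries in doubt and without ribosomal or repeat-like genes, and 0 to 5 without single libraries. The cause of these shifts was not tested.

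With the number as a replicate block, 68 genes passed between facilities, and 72 in the 8 libraries alone, 0 in the segment and 3 in the sort interaction. Same-numbered Bern and Crick libraries deviated from their group means with correlations of -0.18 to 0.0055, so the samples share only a number. A replicate block within facility gave 0 and 5 genes in the interactions. The 30 named and called list genes kept their direction in every alternative run in which they had a value. Of these, 1 passed in all 8 fits without a single library, 12 in some and 17 in none. A count of 0 in Bern allows up to 0.178 CPM.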
